A study of Mus musculus with 8 samples.

Results

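Brown adipose tissue (BAT) of obese mice was examined for the transcripts of 36 fatty acid oxidation genes, chosen by name from the enzymes, transporters and 1 regulator of the pathway. All 36 were found among 44674 genes and all 36 passed the filter on low counts, which left 14489 genes. Of these members, 23 act in mitochondria, 9 in peroxisomes, 3 in both compartments (*Crat*, *Acad11* and *Eci2*), and *Pdk4* encodes a kinase that regulates mitochondrial fuel choice. The 4 control mice and 4 Ox1R ΔSERT mice were males kept on a high-fat diet (HFD) from week 4 to week 18 of age, and BAT was taken at the end of a hyperinsulinemic-euglycemic clamp, in which insulin is infused while blood glucose is held constant. Per the study's methods, both groups carried floxed alleles of the orexin receptor gene (Ox1R fl/fl), controls had no Cre transgene (Sert-Cre wt/wt), and Ox1R ΔSERT mice carried Sert-Cre (Sert-Cre tg/wt), which is driven by the serotonin transporter gene. The deletion was aimed at serotonergic cells, and recombination in BAT was not examined here. *Hcrtr1*, the Ox1R gene, had between 0 and 5 counts per mouse in BAT. Each library was 1 mouse, named below by its number.

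Fatty acids are the main fuel of brown fat. Long-chain fatty acids are activated to acyl-CoA, cross into mitochondria as carnitine esters, and are shortened there by repeated cycles of dehydrogenation, hydration, a second dehydrogenation and thiolysis, with electrons passed to the respiratory chain through the electron transfer flavoprotein. Peroxisomes shorten very-long-chain and branched fatty acids by the same chemistry, except that an oxidase makes the first double bond and no energy is conserved at that step.

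Total counts were 35852708 to 50063339 per mouse, and every member had at least 461 counts in every mouse. Transcripts encoded by mitochondrial DNA took 33.6% to 46.8% of counts. Ox1R ΔSERT mice 11601 and 11708 stood apart from the other 6 mice, at 61.6 and 80.5 on the first principal component of all genes (52.2% of variance), where the others lay between -47.5 and 8.62. Results of the members that rest on them are therefore also given without these 2 mice. They were also the mice with the most RNA of macrophage and leukocyte markers and of fibroblast and matrix markers. Summed TPM (a level corrected for transcript length and library depth) of the macrophage and leukocyte markers was 988 in 11601 and 721 in 11708. It was 140 and 198 in the other Ox1R ΔSERT mice and 96.9 to 188 in control mice. Of 14 such markers tested, 13 were higher in Ox1R ΔSERT mice at unadjusted p under 0.05 (10.2% of all genes), with a median log2 fold change of 1.61. In the fit without 11601 and 11708, 0 were higher at that threshold, but only 1 of 14 was below 0 (median 0.20). Fibroblast and matrix markers summed to 1896 and 860 TPM in 11601 and 11708 and to 118 to 311 in the other 6. Of these markers, 7 of 7 were higher at that threshold (median 1.72). Without 11601 and 11708, 0 were higher at that threshold, but 0 of 7 were below 0 (median 0.43). These counts do not show either set of markers unchanged, because the mice with the highest sums were left out. The share of all genes higher in that fit is not given here. Brown adipocyte markers summed to 7769 and 6999 TPM in 11601 and 11708 and to 8164 to 9179 in the other mice. Of 13 brown adipocyte markers, 12 had a log2 fold change below 0 (median -0.37) and 5 were lower at unadjusted p under 0.05 (49.6% and 4.96% of all genes). Without 11601 and 11708, 10 were below 0 (median -0.22) and 2 were lower (52.2% and 1.20% of all genes). Adipocyte markers summed to 11727 and 10013 against 9519 to 13978. No marker on these lists was at 0 in all mice, and *Ucp1*, the uncoupling protein that defines brown fat, had normalized values of 2513 to 4895. The part of these markers in the results below was not tested.

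The levels of the members spanned a wide range, and mitochondrial enzymes stood at the top. On the TPM scale, *Hadhb*, the β subunit of the trifunctional protein, had the highest mean level (2048 ± 185 TPM, SD, n = 8) and exceeded the next gene in 8 of 8 mice. It was followed by the long-chain dehydrogenase *Acadl* (1207 ± 129 TPM), the thiolase *Acaa2* (1121 ± 162 TPM), the very-long-chain dehydrogenase *Acadvl* (1050 ± 82.8 TPM) and *Etfa* (1040 ± 92.6 TPM), an electron transfer flavoprotein subunit. These neighbours could not be ordered, since each exceeded the next in only 5 or 6 of 8 mice down to *Etfa*. *Etfa* then exceeded *Acadm* (882 ± 99.2 TPM), the medium-chain dehydrogenase, in 8 of 8 mice. The highest peroxisomal member was *Scp2*, a sterol carrier and thiolase, at rank 10 (517 ± 51.7 TPM), followed among peroxisomal members by *Hsd17b4* at 108 ± 16.5 TPM. The peroxisomal thiolases *Acaa1a* and *Acaa1b* had mean levels of 36.2 and 16.0 TPM, and *Ehhadh*, *Acox3*, *Abcd2* and *Crot* were between 8.91 and 14.9 TPM. *Cpt1a* was last of the 36 (3.36 ± 2.07 TPM).

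**Figure D1:**
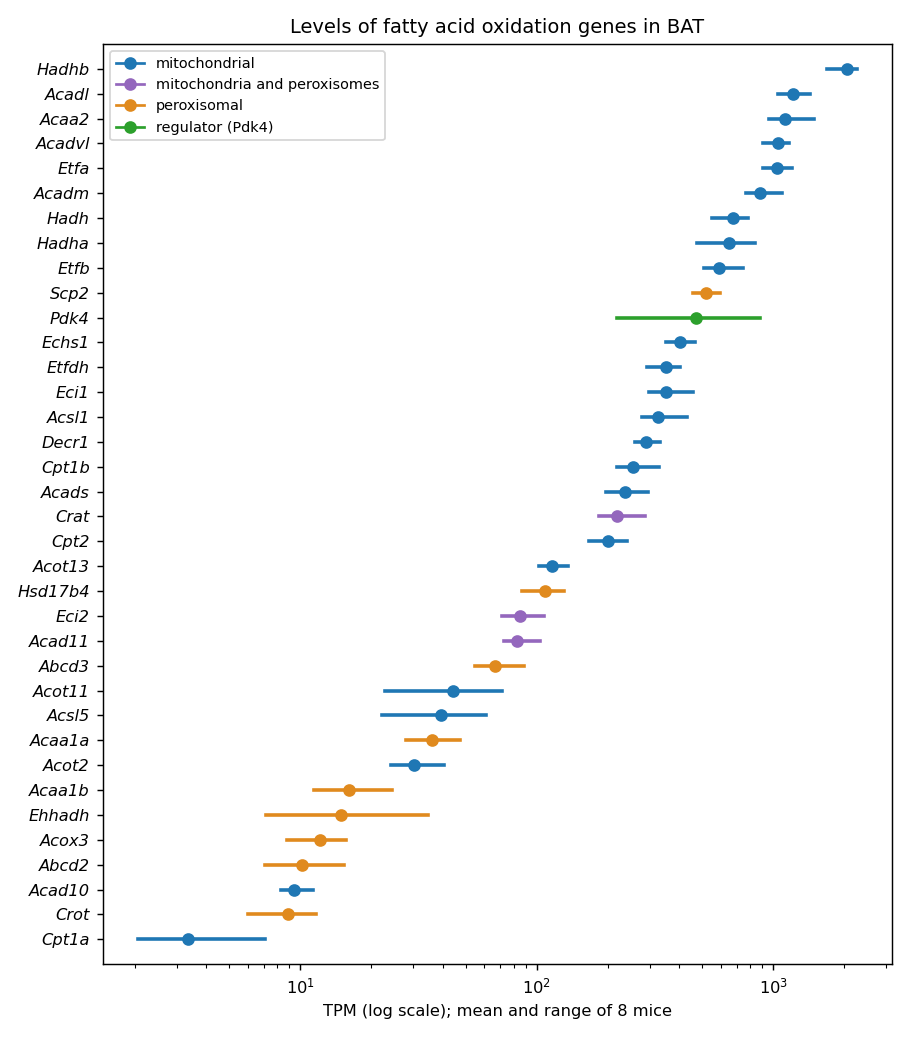
Levels of the 36 members in TPM on a log axis. Points are means of 8 mice and lines run from the lowest to the highest mouse. Mitochondrial members fill ranks 1 to 9, and *Cpt1a* is lowest at 3.36 TPM.

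Between the groups, the mitochondrial enzymes were mostly lower in Ox1R ΔSERT mice by a small amount with TMM scaling, though not on log2(TPM + 1), and no member of either compartment passed the test. edgeR's quasi-likelihood test on normalized counts (CPM, counts relative to library size, after TMM scaling, which assumes that most genes do not differ between libraries) gave 0 of 36 members an adjusted p under 0.05, where 0% of all 14489 genes had one, and the lowest adjusted p among members was 0.316. DESeq2 also called 0 of 36, with a lowest adjusted p of 0.154, where it called 1.75% of 15119 genes. At an unadjusted p under 0.05, 4 members were lower (*Decr1*, *Etfa*, *Eci2* and *Acadm*), where 4.96% of all genes were, and 1 was higher (*Cpt1a*), where 10.2% were. The count of lower members was 8 in DESeq2, where 3.09% of all genes were lower. The values of the 8 mice overlapped between groups in all but 2 members, *Acadm* and *Decr1*, which were lower in each Ox1R ΔSERT mouse than in any control mouse, as were 2.81% of all genes. No member was higher without overlap, against 2.69% of all genes. With 3 mice left in 1 group, 10 members were lower without overlap when 11243 was left out (8.64% of all genes), 6 without 11613 (5.26%), 4 without 11563 (4.21%) and 5 without 11253 (5.11%). Without 11253, 2 members were also higher without overlap (6.07% of all genes). Leaving out control mouse 10684 gave 2 lower members, where 7.22% of all genes were lower without overlap. The count of lower members was also 2 without 11560 (3.25% of all genes), without 11601 (3.66%) and without 11708 (3.40%). Fewer cells of a type and less RNA per cell cannot be told apart in these bulk samples.

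The log2 fold change (Ox1R ΔSERT minus control) was below 0 in 22 of 23 mitochondrial members, in 3 of 3 members of both compartments and in 5 of 9 peroxisomal members, where 49.6% of all genes were below 0. The median log2 fold change was -0.28 over the mitochondrial members, -0.23 over the 3 members of both compartments and -0.06 over the peroxisomal members, against 0.00 over all genes tested. The difference between compartments was not tested. These directions depended on the scaling: with library size scaling the median of all genes moved to 0.22, that of the mitochondrial members to -0.09 and that of the peroxisomal members to 0.14, and on log2(TPM + 1) the 3 medians were 0.23, 0.04 and 0.31. Taken against all genes, the mitochondrial median was -0.31 with library size scaling and -0.19 on log2(TPM + 1), and the peroxisomal median was -0.07 and 0.08. Without control mouse 10684 the peroxisomal median was 0.15, and without 11601 it was 0.0036.

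**Figure D2:**
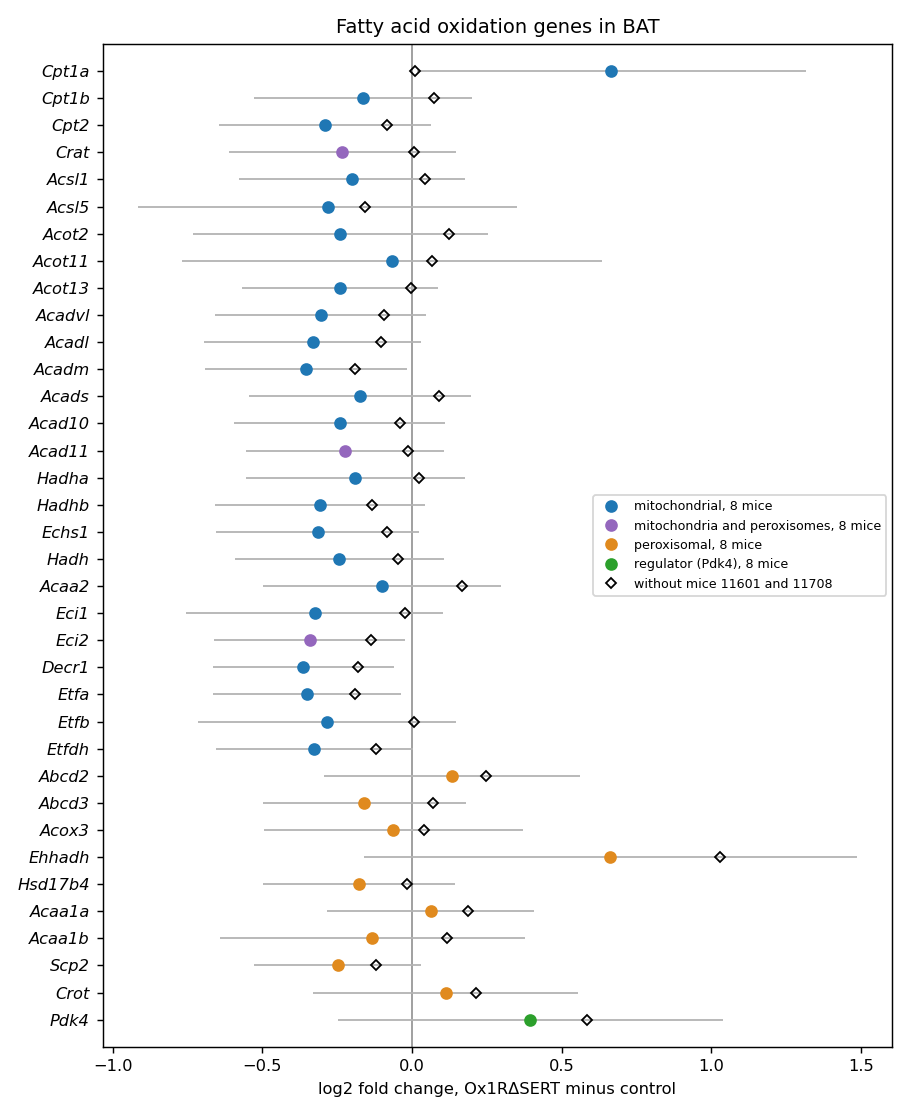
Log2 fold change (Ox1R ΔSERT minus control) of each member. Filled points are fits of 8 mice with 95% confidence intervals as lines, coloured by compartment, and open diamonds are fits without mice 11601 and 11708. *Cpt1a*, *Ehhadh* and *Pdk4* lie to the right at 0.67, 0.66 and 0.40, and 22 of 23 mitochondrial points lie left of 0 with TMM scaling, where 17 do with library size scaling (19.3% of all genes) and 7 on log2(TPM + 1) (9.03% of all genes).

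The lowest values were mostly those of mice 11601 and 11708. They were the 2 lowest of the 8 mice in 26 of 36 members and in 20 of 23 mitochondrial members, where this held for 15.3% of all genes, but in only 3 of 9 peroxisomal members. The median log2 difference of the mitochondrial members from the control mean was -0.53 in each of them, -0.04 in each of the other Ox1R ΔSERT mice, and between -0.07 and 0.12 in control mice. The peroxisomal median was -0.37 in 11601, -0.06 in 11708, 0.02 in 11243 and 0.27 in 11613, and lay between -0.20 and 0.28 in control mice. Without mice 11601 and 11708 the median log2 fold change was -0.04 over the mitochondrial members and 0.12 over the peroxisomal members, against -0.01 over all genes. In that fit 0 members were lower at unadjusted p under 0.05, where only 1.20% of all genes were. Single mice also set that count of 4: it was 0 without control mouse 10684, 0 without 11253, 1 without 11560, 2 without 11563, 0 without 11601 and 0 without 11708, but 13 without 11243 and 9 without 11613. The share of all genes that were lower moved with it, from 8.50% without 11243 and 5.97% without 11613 to 2.51% without 11601 and 2.13% without 11708, and was 6.54%, 4.22%, 2.02% and 2.72% without the control mice in the order given. The mitochondrial members together took 3.07% to 3.65% of nuclear-encoded TPM in control mice, 2.76% and 2.86% in 11601 and 11708, and 3.31% and 3.23% in 11243 and 11613.

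**Figure D3:**
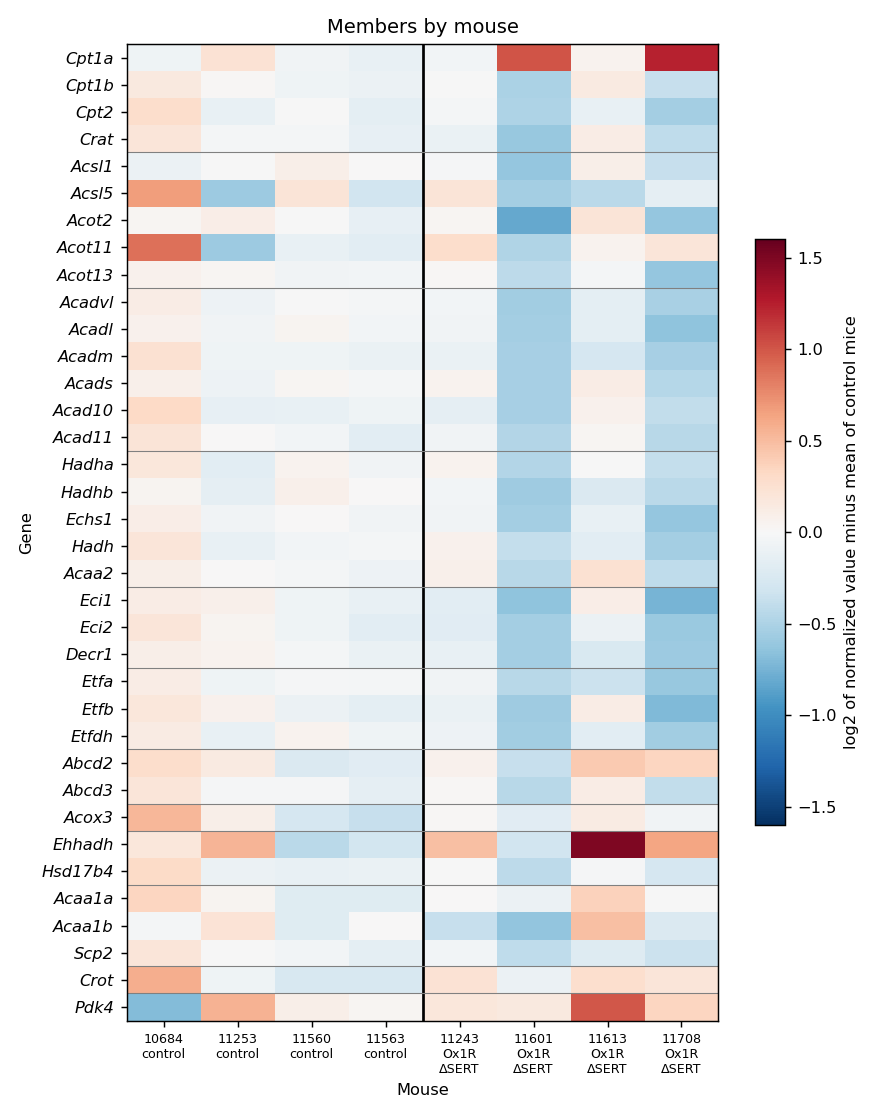
Members (rows, with lines between roles) by mouse (columns, 4 control mice left of the black line). Colour is the log2 normalized value minus the mean of the control mice. Blue columns stand at 11601 and 11708 through most mitochondrial members, where the median was -0.53 in each, while *Cpt1a* is red in both.

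**Figure D4:**
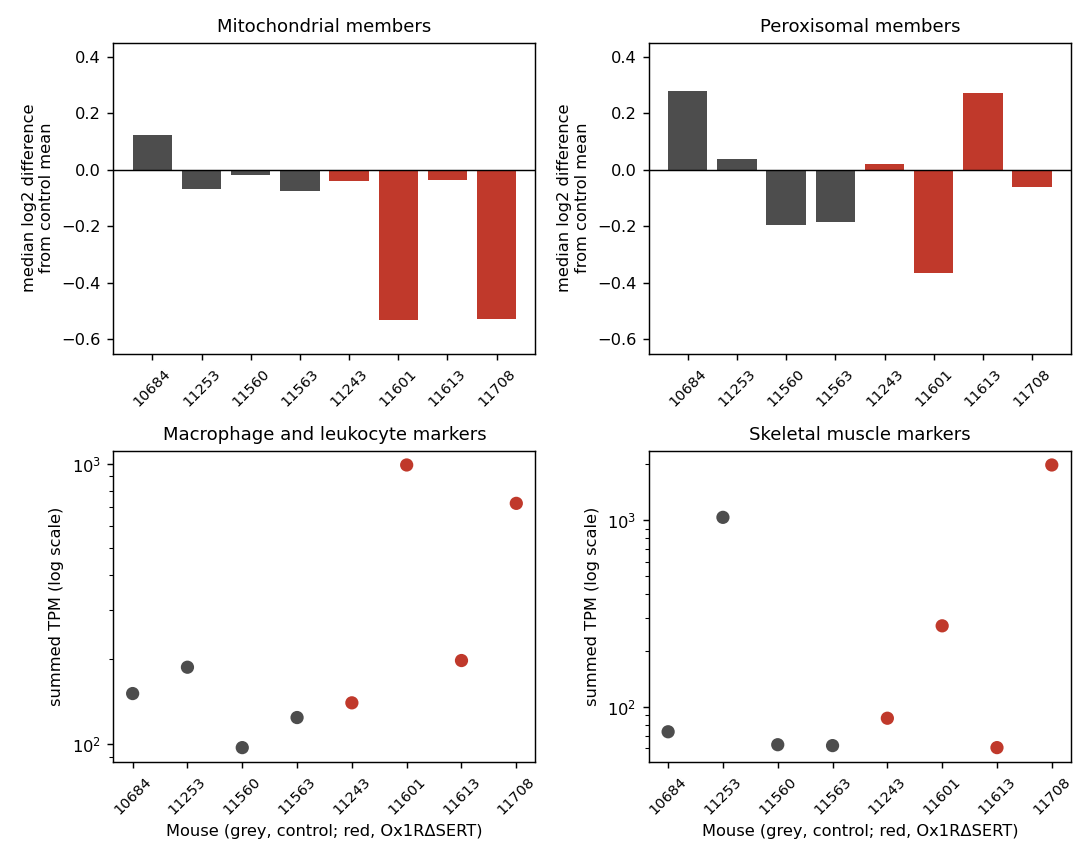
The upper panels show, per mouse, the median log2 difference of the 23 mitochondrial and 9 peroxisomal members from the control mean. The lower panels show summed TPM of the macrophage and leukocyte markers and of the skeletal muscle markers on log axes. Mice 11601 and 11708 have the lowest mitochondrial medians and the highest macrophage and leukocyte sums, 988 and 721 TPM.

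Entry into mitochondria is made by carnitine palmitoyltransferases. *Cpt1b* encodes the muscle-type outer membrane enzyme and *Cpt1a* the liver-type enzyme, and CPT1 is the step that malonyl-CoA inhibits. *Cpt1b* was the main form in every mouse. The ratio of *Cpt1b* to *Cpt1a* TPM was 125, 94.2, 110.1 and 114 among controls (10684, 11253, 11560 and 11563) versus 114, 39.0, 117 and 39.6 in the Ox1R ΔSERT group (11243, 11601, 11613 and 11708). Mice 11601 and 11708 lay far below all others, and the other Ox1R ΔSERT mice lay within the control range. The mean ratio was 111 ± 12.6 (SD, n = 4) in control mice and 77.5 ± 44.1 (n = 4) in Ox1R ΔSERT mice. The difference between the groups' means of the log2 ratio was -0.71 and did not pass a two-sided exact permutation test (p = 0.286, where 0.0286 is the smallest possible). Without 11601 and 11708 the log2 difference was 0.07.

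Normalized values of *Cpt1a* were 12.1, 14.8, 12.1 and 11.6 among controls (10684, 11253, 11560 and 11563) versus 12.3, 25.2, 13.1 and 29.7 in the Ox1R ΔSERT group (11243, 11601, 11613 and 11708). The groups overlapped, and only 11601 and 11708 exceeded the controls. Its log2 fold change was 0.67 ± 0.29 (SE; edgeR unadjusted p = 0.0455, adjusted p = 0.326) and 0.01 without these 2 mice. Summed TPM of the liver markers was 33.6 in 11601 and 452 in 11708 and at most 14.2 in the other mice, and the macrophage and leukocyte markers were high in the same mice. The part of either in *Cpt1a* was not tested.

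*Cpt1b* had normalized values of 967, 879, 825 and 810.0 among controls versus 863, 609, 961 and 671 in the Ox1R ΔSERT group, in the same order of mice. Mice 11601 and 11708 were below all controls and the other Ox1R ΔSERT mice were among them. Its log2 fold change of -0.16 ± 0.16 (edgeR adjusted p = 0.624) turned to 0.03 with library size scaling and to 0.07 without 11601 and 11708. Of the exon bases of *Cpt1b*, 81.4% are shared with the readthrough gene *Gm44502* on the same strand, so its level is uncertain. Skeletal muscle markers summed to 1035 TPM in control mouse 11253, 1976 in 11708, 272 in 11601 and 60.5 to 86.9 in the other mice, and on the same TPM scale *Cpt1b* was at 218 in 11253, 280.3 in 11708, 244 in 11601 and 230.1 to 329 in the others. The part of muscle RNA in *Cpt1b* was not tested.

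*Cpt2*, the inner membrane transferase that regenerates acyl-CoA, had normalized values of 655, 496, 536 and 485 among controls versus 527, 384, 495 and 371 in the Ox1R ΔSERT group. Only 11601 and 11708 lay below all controls. Its log2 fold change was -0.29 ± 0.16 (edgeR adjusted p = 0.387), and 0.08 on log2(TPM + 1). *Crat*, which exchanges short acyl groups between CoA and carnitine, was at -0.23, and the carnitine-acylcarnitine carrier *Slc25a20*, which is no member, at -0.32 ± 0.15 (adjusted p = 0.345).

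Acyl-CoA synthetases and thioesterases make and break acyl-CoA. *Acsl1*, the main long-chain synthetase of fat, was at a log2 fold change of -0.20, and *Acsl5* at -0.28 with a wide SE of 0.28. The thioesterases *Acot2*, *Acot11* and *Acot13* were at -0.24, -0.07 and -0.24. All 5 were negative and none had an unadjusted p under 0.05. *Acsl5* and *Acot11* did not have 11601 and 11708 as the 2 lowest mice. Their lowest was control mouse 11253, at 110 and 195 normalized, and their highest control mouse 10684, at 262 and 536. *Acot2* shares 29.9% of its 31-base words with the neighbouring family member *Acot1*, and the log2 ratio of the group means of both summed was -0.26.

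The first dehydrogenation of each mitochondrial cycle is made by acyl-CoA dehydrogenases of different chain-length preference. *Acadm*, the medium-chain enzyme, stood at 2568, 2063, 2059.9 and 2007 normalized in controls 10684, 11253, 11560 and 11563. The Ox1R ΔSERT group (11243, 11601, 11613 and 11708) had 2003, 1503, 1796 and 1500.3. The groups did not overlap, but 11243 lay just under the lowest control mouse. The mean was 2174 ± 264 (SD, n = 4) in control mice and 1701 ± 245 (n = 4) in Ox1R ΔSERT mice, a log2 fold change of -0.35 ± 0.15 (edgeR unadjusted p = 0.041, adjusted p = 0.324). Without 11601 and 11708 it was -0.19, still without overlap, where 5.49% of all genes were lower without overlap. It stayed negative under each of 19 alternatives, from -0.46 to -0.01, although library size scaling removed the separation of the groups.

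*Acadl* was at -0.33, *Acadvl* at -0.31, *Acads*, the short-chain enzyme, at -0.18, *Acad10* at -0.24 and *Acad11*, which acts in both compartments, at -0.22. All 6 dehydrogenases had 11601 and 11708 as their lowest mice, and none but *Acadm* had an unadjusted p under 0.05. Exon bases of *Acadvl* overlap *Dvl2* on the opposite strand over 42.9%. The libraries were stranded, but whether the counting used strand is not given in the sources used here, so this level is uncertain. *Acad10* shares 22.9% of its 31-base words with *Acad12*, and the log2 ratio of group means of their sum was -0.19.

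The promoters of *Acadm* and *Cpt1a* are shown because these 2 members differed in opposite directions at unadjusted p under 0.05. They were chosen after their values were seen. Each line gives the 250 bases before the transcription start in RefSeq (GRCm38.p6), 5′ to 3′ on the gene's strand, with the nuclear receptor half-site (AGGTCA, or TGACCT on the other strand) in capitals. The *Acadm* window is chr3:153944644-153944893 on the minus strand and the *Cpt1a* window is chr19:3323051-3323300 on the plus strand.
Acadm: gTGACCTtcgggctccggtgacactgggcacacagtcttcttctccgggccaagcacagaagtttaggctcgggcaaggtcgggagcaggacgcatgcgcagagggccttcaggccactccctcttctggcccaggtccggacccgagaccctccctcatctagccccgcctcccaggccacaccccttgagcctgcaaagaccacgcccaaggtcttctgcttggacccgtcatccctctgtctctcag
Cpt1a: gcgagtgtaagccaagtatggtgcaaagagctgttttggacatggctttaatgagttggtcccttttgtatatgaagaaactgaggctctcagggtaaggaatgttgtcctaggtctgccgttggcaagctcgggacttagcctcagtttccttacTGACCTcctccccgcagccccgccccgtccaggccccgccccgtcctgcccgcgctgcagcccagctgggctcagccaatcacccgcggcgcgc
The half-site began 249 bases before the start in *Acadm* and 94 bases before it in *Cpt1a*. Of 29 members with an entry in the table, 5 held it (*Acadm*, *Acadvl*, *Cpt1a*, *Echs1* and *Scp2*), and 14% of all 32851 windows of this length did. A direct repeat of such sites with 1 base between was in 0 of 29 and in 0.338% of windows, and the extended half-site TNAAGGTCA in 0 of 29 and in 1.14% of windows. CCAAT was in 16 of 29 and in 33.8% of windows, and TATAAA in 0 of 29 and in 12.4%. A match in these letters is a description and not a bound site.

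The later steps of the cycle are hydration, the second dehydrogenation and thiolysis. The trifunctional protein carries them out on long chains. Its α subunit *Hadha* was at a log2 fold change of -0.19 and its β subunit *Hadhb* at -0.31. *Hadhb*, given per mouse for its level after its values were seen, had normalized values of 4922, 4330.5, 5060.5 and 4787 among controls versus 4630.0, 3217, 4049 and 3533 in the Ox1R ΔSERT group. In 3 of 4 Ox1R ΔSERT mice it was below all controls, and 11243 was within them. The short-chain enzymes *Echs1* and *Hadh* were at -0.32 and -0.24 and the thiolase *Acaa2* at -0.10. None had an unadjusted p under 0.05, and in all 5 the lowest mice were 11601 and 11708.

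Unsaturated fatty acids need auxiliary enzymes that move or reduce double bonds. *Decr1*, the mitochondrial dienoyl-CoA reductase, had the lowest unadjusted p of the 36. Its normalized values were 1067, 1038, 980.4 and 927 among controls versus 922, 685, 842 and 672 in the Ox1R ΔSERT group (11243, 11601, 11613 and 11708). The groups did not overlap, again with 11243 just under the lowest control mouse. *Decr1* had a log2 fold change of -0.36 ± 0.13 (edgeR unadjusted p = 0.0236, adjusted p = 0.316, DESeq2 adjusted p = 0.154). Without 11601 and 11708 it was -0.18, and over 19 alternatives it ranged from -0.47 to -0.03. As for *Acadm*, the groups overlapped with library size scaling, without a filter on low counts, on both TPM scales and with a transcript length offset. *Eci2*, an enoyl-CoA isomerase of both compartments, had normalized values of 151, 136, 125 and 117 among controls versus 116, 90.2, 124 and 87.5 in the Ox1R ΔSERT group. Here 11613 was within the controls. The log2 fold change of *Eci2* was -0.34 ± 0.14 (edgeR unadjusted p = 0.0387, adjusted p = 0.321), and 0.02 on log2(TPM + 1). *Eci1*, the mitochondrial isomerase, was at -0.32 with 11601 and 11708 lowest.

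Electron transfer to the respiratory chain uses *Etfa*, *Etfb* and the membrane dehydrogenase *Etfdh*. *Etfa* had normalized values of 1569, 1373, 1423 and 1406 among controls versus 1389, 1057, 1131 and 946 in the Ox1R ΔSERT group. In all, 3 of the Ox1R ΔSERT mice were below all controls, and 11243 was above 11253. Its log2 fold change was -0.35 ± 0.14 (edgeR unadjusted p = 0.0325, adjusted p = 0.316), -0.19 without 11601 and 11708, and between -0.49 and -0.02 over 19 alternatives. *Etfb* was at -0.29 and *Etfdh* at -0.33, the latter with an unadjusted p of 0.0521 (adjusted p = 0.332). *Etfb* shares 53.0% of its exon bases with *Gm45233*, so its level is uncertain.

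**Figure D5:**
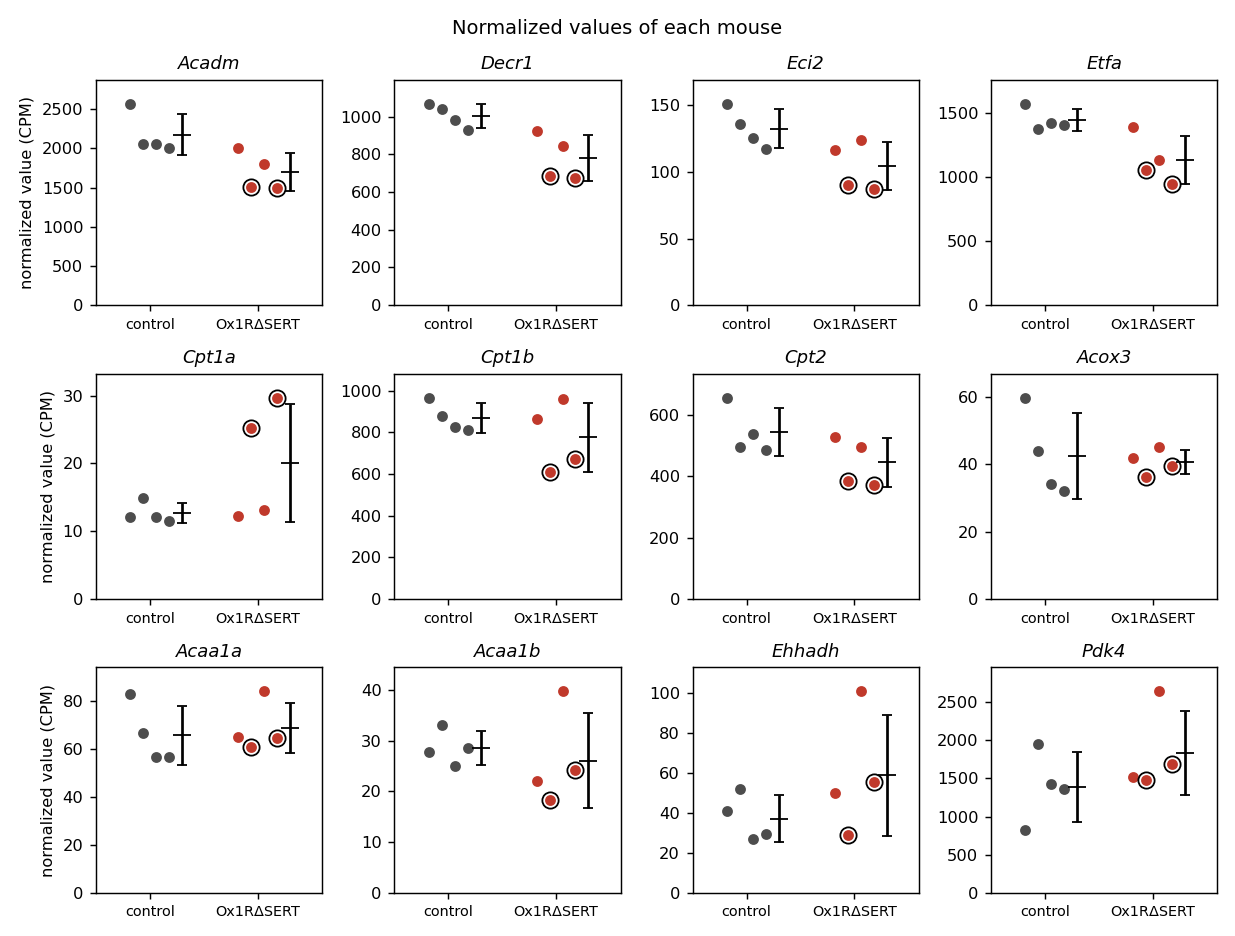
Normalized values (CPM after TMM scaling) of 12 members per mouse, on axes that start at 0. Points are mice in order of their numbers, bars are mean ± SD (n = 4), and circles mark 11601 and 11708. *Acadm* and *Decr1* do not overlap between groups, and *Cpt1a* is high only in the circled mice, at 25.2 and 29.7.

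The peroxisomal members lay on both sides of 0, with 5 below and 4 above. *Acox3* is given in full because it was also measured by PCR elsewhere in the study. That PCR, in BAT of older, randomly fed HFD mice and not after a clamp, was reported as lower in Ox1R ΔSERT mice. Import of very-long-chain acyl-CoA is by the transporters *Abcd2* and *Abcd3*, which were at log2 fold changes of 0.13 and -0.16. *Acox3*, an oxidase of branched fatty acids, had normalized values of 59.7, 44.0, 34.1 and 32.0 among controls versus 41.8, 36.3, 45.1 and 39.4 in the Ox1R ΔSERT group. All Ox1R ΔSERT mice lay within the control range. The log2 fold change of *Acox3* was -0.06 ± 0.19 (95% confidence interval -0.49 to 0.37, edgeR adjusted p = 0.892), and it turned to 0.14 with library size scaling, to 0.04 without 11601 and 11708, and to 0.15 without control mouse 10684.

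The bifunctional proteins *Ehhadh* and *Hsd17b4* hydrate and dehydrogenate. *Ehhadh*, given per mouse here after its values were seen, had normalized values of 40.6, 52.0, 26.6 and 29.2 among controls versus 49.9, 29.0, 101 and 55.6 in the Ox1R ΔSERT group. Mouse 11613 was highest by far, and 11601 was among the lowest. Its log2 fold change was 0.66 ± 0.36 (edgeR unadjusted p = 0.101, adjusted p = 0.391). Without 11601 and 11708 it was 1.03 (unadjusted p = 0.0169, adjusted p = 0.996), the only member with an unadjusted p under 0.05 in that fit. *Hsd17b4* was at -0.18, with 11601 and 11708 lowest.

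*Acaa1a*, a peroxisomal thiolase, had normalized values of 82.7, 66.6, 56.7 and 56.7 among controls versus 65.1, 61.0, 83.9 and 64.4 in the Ox1R ΔSERT group. The groups overlapped throughout, with a log2 fold change of 0.06 ± 0.15 (edgeR adjusted p = 0.862), which was -0.0051 without control mouse 11560, -0.013 without 11563 and -0.052 without 11613. Its close copy *Acaa1b* had values of 27.8, 33.1, 24.9 and 28.4 among controls versus 22.1, 18.3, 39.7 and 24.2 in the Ox1R ΔSERT group. In all, 3 of the Ox1R ΔSERT mice were below all controls and 11613 was above all. *Acaa1b* had a log2 fold change of -0.13 ± 0.22 (edgeR adjusted p = 0.791) and turned to 0.08 with library size scaling, to 0.12 without 11601 and 11708 and to 0.0036 without 11601. Of the 1932 31-base words of *Acaa1b*, 773 are shared with *Acaa1a*, so reads could be split between them. Their sum was 94.2 ± 13.3 among controls versus 94.6 ± 19.7 in the Ox1R ΔSERT group (SD, n = 4 each, two-sided exact permutation test, p = 0.971). *Scp2* was at -0.25 ± 0.12 (edgeR adjusted p = 0.362), with 11601 and 11708 lowest, and *Crot*, which makes carnitine esters for export, was at 0.11.

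*Pdk4*, which phosphorylates pyruvate dehydrogenase and so spares glucose while fatty acids are burnt, differed widely among control mice. Its normalized values were 824, 1951, 1424 and 1364 among controls versus 1512, 1480.0, 2640 and 1687 in the Ox1R ΔSERT group. Only 11613 exceeded all controls. *Pdk4* had a log2 fold change of 0.40 ± 0.28 (edgeR adjusted p = 0.503), and it stayed positive over 19 alternatives, from 0.16 to 0.77.

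Related genes outside the 36 were read from lists of the pathway. The list of other mitochondrial fatty acid oxidation genes was broad and also held genes of neighbouring reactions. Of its 26 genes tested, 21 were below 0 (median log2 fold change -0.26), 6 were lower and 0 higher at unadjusted p under 0.05. The 6 were *Mcee*, *Acss1*, *Fabp3*, *Acadsb*, *Etfbkmt* and *Mut*, and so not the core enzymes of the cycle. Over all genes 49.6% were below 0, 4.96% lower and 10.2% higher. This list's median was -0.06 without 11601 and 11708, with 18 below 0 and 2 lower, where 52.2% and 1.20% of all genes were. The lowest p-values were those of *Mcee*, which isomerises methylmalonyl-CoA (-0.48 ± 0.14, adjusted p = 0.316), the acetyl-CoA synthetase *Acss1* (-0.48 ± 0.15, adjusted p = 0.316), the fatty acid binding protein *Fabp3* (-0.48 ± 0.16, adjusted p = 0.316) and the branched-chain dehydrogenase *Acadsb* (-0.28 ± 0.11, adjusted p = 0.316). *Mcee*, *Fabp3* and *Acadsb* were lower without overlap between groups, as were 2.81% of all genes. Of 21 other genes tested from a similarly broad peroxisomal list, 17 were below 0 (median -0.21). At that threshold 3 were lower: the thioesterase *Acot6* (-0.54 ± 0.17), *Acbd5*, which tethers peroxisomes to the endoplasmic reticulum (-0.23 ± 0.09), and the carrier *Slc25a17* (-0.40 ± 0.17). *Phyh*, the hydroxylase of phytanoyl-CoA, was next at -0.25 ± 0.13. Of 16 genes of peroxisome biogenesis, 13 were below 0 (median -0.14) and *Pex2* alone was lower at that threshold (-0.23 ± 0.10), where 4.96% of all genes were. Without 11601 and 11708 the medians of these 2 lists were -0.05 and 0.01, and 0 genes of either were lower.

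Among 13 regulators of the pathway the median was -0.05, and 1 was lower at unadjusted p under 0.05 (4.96% of all genes). This was *Esrrb*, an orphan nuclear receptor, at -0.88 ± 0.22 (edgeR adjusted p = 0.316, DESeq2 adjusted p = 0.0322). It was lower without overlap between groups, as were 2.81% of all genes. It was at -0.66 without 11601 and 11708, where the groups overlapped. *Ppara*, the receptor that drives many oxidation genes, was at 0.39 ± 0.27 (adjusted p = 0.488), and *Ppargc1a*, a coactivator of mitochondrial genes, at -0.52 ± 0.37 (adjusted p = 0.496). *Ppargc1b*, of the same list, went the other way, at 0.47 ± 0.26 (edgeR adjusted p = 0.395). Without 11601 and 11708, *Ppargc1a* was at -0.26 and *Ppargc1b* at 0.72. *Ppargc1b* was then higher without overlap, as were 5.27% of all genes. By PCR in older, randomly fed HFD mice, the study reported lower *Ppargc1a* in Ox1R ΔSERT mice. Of 15 other PPAR target genes, 1 had an unadjusted p under 0.05 (10.2% of all genes were higher and 4.96% lower). This was *Angptl4*, an inhibitor of lipoprotein lipase. Its normalized values were 83.1, 98.6, 53.0 and 62.9 among controls versus 123, 169.7, 149.7 and 162 in the Ox1R ΔSERT group, without overlap between the groups. The log2 fold change of *Angptl4* was 1.02 ± 0.20 (edgeR adjusted p = 0.316, DESeq2 adjusted p = 0.00188), and 0.88 without 11601 and 11708, still without overlap. The median of the 15 genes was -0.17.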

How the data were processed

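BAT of 8 mice was sequenced from stranded poly-A libraries, 1 library per mouse. Per the study's methods, genes were quantified with Salmon 0.14.1 within nf-core rnaseq. The submitters' processing notes name the build GRCm38.p6 and also STAR. The authors deposited unnormalized estimated counts per gene and TPM values, which correct for transcript length and depth. The annotation release, trimming and read filters are not given in the sources used here. The authors tested with DESeq2 1.26.0.

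Gene symbols came from GENCODE M21 for 98.8% of identifiers. Estimated counts were rounded to whole numbers, filtered with edgeR's filterByExpr (4.0.16, R 4.3.3), scaled by TMM and tested with edgeR's quasi-likelihood test, Ox1R ΔSERT against control, with Benjamini-Hochberg adjustment over 14489 genes. DESeq2 1.42.0 and limma 3.58.1 on log2(TPM + 1) were alternatives, as were other scalings, filters and each mouse left out. TPM rescaled to nuclear genes was added after seeing the data. Exact permutation tests covered 70 assignments. The 95% confidence intervals give the uncertainty of the fitted difference between groups, from its edgeR SE, and not the spread of the mice. Nothing in the labels pairs mice. The scripts were tested on simulated data. Promoters were taken from RefSeq (GRCm38.p6).

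Members and lists were chosen with earlier results of these data known. Values per mouse are given for members without overlap, with unadjusted p under 0.05, and for *Acox3*, *Cpt1a*, *Cpt1b*, *Cpt2*, *Acaa1a*, *Acaa1b* and *Pdk4*. Named other genes are the up to 4 of lowest p per list, plus *Slc25a20*, *Ppara* and *Ppargc1a*. A further gene of this rule is not reported here.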

Additional observations from a re-analysis of the deposited data

Results flagged for a closer look

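Of 100 groups of 4 mice examined, 7 held a mouse far from the other 3 by Dixon's criterion, and chance gives about 1 in 20. Control mouse 10684 was far above the other controls in *Acadm* (2568 normalized, others 2007 to 2063), *Acad10* (50.5, others 37.0 to 38.4), *Hsd17b4* (417, others 310.4 to 316) and *Crot* (40.1, others 22.4 to 25.4). This mouse was the highest of the 8 in 25 of the 36 members. Summed TPM of the skeletal muscle markers was 1035 in control mouse 11253 (other controls 62.0 to 73.5) and 1976 in Ox1R ΔSERT mouse 11708 (others 60.5 to 272). Summed TPM of the liver markers was 452 in Ox1R ΔSERT mouse 11708 (others 3.74 to 33.6).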

How the results depend on the processing

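With 4 mice per group the data cannot show small changes of single members, and the count of members with an adjusted p under 0.05 was 0 under each of 20 alternatives. The other counts moved. Members lower at unadjusted p under 0.05 were 8 in DESeq2 (3.09% of all genes) and 1 with TPM rescaled to nuclear genes (1.44%, added after seeing the data). They were 0 with library size scaling (0.607% of all genes), on log2(TPM + 1) (0.242%), on log2(TPM + 0.1) (0.228%) and with a transcript length offset (1.18%). They were also 0 without mice 11601 and 11708 (1.20%), and 0 to 13 with 1 mouse left out (2.02% to 8.50%). Members without overlap were 1, lower, in DESeq2 (1.90% of all genes lower without overlap), with RLE scaling (2.64%) and with TPM rescaled to nuclear genes (0.926%). They were 0 in either direction with library size scaling, without a filter on low counts, on either TPM scale and with the length offset. Of all genes, 0.483%, 1.92%, 0.166% and 0.255% were lower without overlap there, and 4.54%, 2.06%, 5.59% and 0.400% higher. With 1 mouse left out, members without overlap in either direction were 2 to 10. In those fits, 3.25% to 8.64% of all genes were lower without overlap and 2.99% to 7.32% higher. The mitochondrial median was 0.039 on log2(TPM + 1) and 0.043 on log2(TPM + 0.1), but -0.13 with TPM rescaled to nuclear genes and -0.21 with the length offset. It was -0.039 without 11601 and 11708, and -0.38 to -0.19 with 1 mouse left out. The peroxisomal median was 0.14 with library size scaling and with TPM rescaled to nuclear genes, 0.31 on log2(TPM + 1), 0.32 on log2(TPM + 0.1), 0.041 with the length offset, 0.12 without 11601 and 11708, and -0.16 to 0.15 with 1 mouse left out. The log2 difference in the *Cpt1b* to *Cpt1a* ratio was 0.070 without 11601 and 11708. Among single genes, *Cpt1b* turned to 0.033 with library size scaling, 0.18 on both TPM scales, 0.073 without 11601 and 11708 and 0.0042 with TPM rescaled to nuclear genes, *Cpt2* to 0.078 and *Eci2* to 0.020 on both TPM scales. *Acox3* turned to 0.14 with library size scaling, 0.32 on log2(TPM + 1), 0.34 on log2(TPM + 0.1), 0.041 with the length offset, 0.039 without 11601 and 11708 and 0.16 with TPM rescaled to nuclear genes, and lay between -0.19 and 0.15 with 1 mouse left out. *Acaa1a* lay between -0.052 and 0.19 with 1 mouse left out, and *Acaa1b* turned to 0.082 with library size scaling, 0.12 on log2(TPM + 1), 0.13 on log2(TPM + 0.1) and 0.12 without 11601 and 11708, and lay between -0.41 and 0.0036 with 1 mouse left out. The cause of these moves was not tested. No paired analysis was possible because the labels give the mice no replicate numbers and nothing that ties a mouse of one group to a mouse of the other.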
